A study of Mus musculus with 32 samples.

Results

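The genes of cholesterol and fatty acid synthesis were followed in mouse bone marrow-derived macrophages (BMDMs) in which *Trex1* was deleted in culture. The set holds 35 genes, and each was found by matching the Ensembl identifier of a row of the count table, with its version removed, to its symbol. The table has 54281 rows, of which 15257 passed the filter on low counts and were tested, and all 35 genes were among these. By role they were 7 enzymes of the early mevalonate and isoprenoid steps, 11 enzymes between squalene and the sterols, 5 regulators of the SREBP transcription factors, the sterol carrier *Stard4*, the oxysterol-forming enzyme *Ch25h*, 5 genes of fatty acid synthesis and NADPH supply, 4 desaturases and the glycerolipid enzyme *Lpin1*.

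BMDMs are macrophages grown out of bone marrow, here with L929 supernatant as the source of growth factor. All cells carried R26 CreERT2, a Cre recombinase that is made from the Rosa26 locus and acts only while 4-hydroxytamoxifen (4-OHT) is bound to it. In *Trex1* FL/FL cells loxP sites flank both *Trex1* alleles, and in *Trex1* WT/FL cells they flank 1 allele while the other is wild type, so that the 4-OHT-treated controls also went through Cre activity and kept 1 wild type allele. Cultures received 2 µg/ml 4-OHT for 22 h or stayed untreated, and RNA was taken on day 1, 2, 3 or 4 after the exposure ended. Genotype, treatment and day gave 16 groups of 2 libraries, 32 in all. The labels name no animal, age, batch or replicate number, so p-values measure only the spread between these libraries, which may be technical, and a day cannot be told apart from anything that was handled together with it.

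*Trex1* had 0 to 14 estimated counts in the 8 libraries of 4-OHT-treated *Trex1* FL/FL cells, 758 to 3622 in 4-OHT-treated *Trex1* WT/FL cells and 1174 to 6553 in untreated cells. Library totals ran from 35120505 to 63760884 counts (median 44841991). Libraries of 1 group differed by more than sampling noise (chi-square over its degrees of freedom 9.55 to 51.5) and had a Pearson's r of 0.983 to 0.990 over genes, which are no independent replicates. All 8 macrophage markers were detected, and their summed level was 17119 to 45905 CPM (counts scaled by library size). Against this, summed levels were at most 0.591 CPM for T cells, 6.26 for B cells, 2.42 for dendritic cells, 21.8 for neutrophils, 3.06 for fibroblasts, 0.192 for mast cells, 0.0488 for erythroid cells and 0.0673 for adipocytes. The 3 endothelial markers reached 69.6 CPM, the highest of these other cell types, and differed between groups as given further on.

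Cholesterol is built from acetyl-CoA through mevalonate, isoprenoid diphosphates, squalene and lanosterol, and fatty acids are built from the same precursor with NADPH as the reductant. Both routes are controlled by the membrane-bound transcription factors SREBP-1 and SREBP-2, encoded by *Srebf1* and *Srebf2*. When sterols are scarce, Scap escorts these factors from the endoplasmic reticulum to the Golgi, where proteases release the part that enters the nucleus, and when sterols are plentiful, the Insig proteins hold the complex back. Macrophages also sense oxysterols and desmosterol through the LXR receptors, which switch on cholesterol export, and 25-hydroxycholesterol, made by Ch25h, is known as an antiviral oxysterol.

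The sequences just before a RefSeq start are shown for a few of these genes, picked by their course in what follows. *Hmgcs1*, *Mvk* and *Insig1* moved with most of the set and *Lpin1* did not. RefSeq promoter windows (GRCm38.p6, 250 bases before to 50 after a RefSeq start of the gene) were found for 28 of the 35 genes. The 250 bases before the start are printed 5′ to 3′ on the gene's strand in lower case, placed on GRCm39 by exact match, with letters that spell a searched motif on either strand in capitals. The motifs were an SRE form to which SREBPs bind (TCACNCCAC), the CCAAT box read by NF-Y (CCAAT), the E-box CACGTG and the interferon-stimulated response element.
*Hmgcs1* (chr13:120151637-120151886, plus strand), the HMG-CoA synthase gene: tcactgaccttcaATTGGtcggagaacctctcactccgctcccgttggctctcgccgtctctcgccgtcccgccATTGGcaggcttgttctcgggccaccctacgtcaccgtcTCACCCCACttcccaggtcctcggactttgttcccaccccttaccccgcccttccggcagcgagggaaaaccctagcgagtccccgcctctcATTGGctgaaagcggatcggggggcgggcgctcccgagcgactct
*Mvk* (chr5:114582080-114582329, plus strand), the mevalonate kinase gene: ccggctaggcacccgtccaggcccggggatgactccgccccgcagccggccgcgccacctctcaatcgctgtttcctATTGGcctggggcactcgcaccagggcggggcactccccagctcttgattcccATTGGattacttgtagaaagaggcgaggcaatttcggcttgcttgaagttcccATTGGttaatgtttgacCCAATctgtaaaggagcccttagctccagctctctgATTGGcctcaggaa
*Insig1* (chr5:28276160-28276409, plus strand), the gene of a sterol-sensing retention protein: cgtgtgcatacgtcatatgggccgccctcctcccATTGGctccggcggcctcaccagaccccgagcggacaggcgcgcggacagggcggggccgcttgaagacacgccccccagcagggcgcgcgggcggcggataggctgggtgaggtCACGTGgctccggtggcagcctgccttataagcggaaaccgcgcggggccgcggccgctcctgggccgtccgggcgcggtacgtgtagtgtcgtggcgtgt
*Lpin1* (chr12:16660968-16661217, minus strand), a phosphatidate phosphatase gene: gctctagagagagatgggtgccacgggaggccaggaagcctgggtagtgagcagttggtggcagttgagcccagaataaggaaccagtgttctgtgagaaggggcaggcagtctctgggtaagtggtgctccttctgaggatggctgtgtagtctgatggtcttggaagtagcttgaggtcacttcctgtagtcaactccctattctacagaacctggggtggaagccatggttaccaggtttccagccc
*Hmgcs1* was the single gene of the set whose window held the SRE letters, 137 bases before the start, as did 1.44% of the 27025 genes in the table. A CCAAT box was found for 21 of the 28 genes (75.0%), against 41.1% of all genes and 43.2% of the tested genes. The *Mvk* window held 5 CCAAT boxes and the *Hmgcs1* window 4, 1 of which lies after the start and is not printed. The E-box was found for *Dhcr7*, *Hsd17b7*, *Insig1*, *Sc5d* and *Scap* (17.9%, against 8.09% of all genes and 11.5% of the tested genes), the interferon element for *Ebp* (3.57% against 3.99%), and none of the 4 motifs for *Acaca*, *Acat2*, *Ch25h*, *Elovl6*, *Fads2* and *Lpin1*. These are matches of letters in any of the windows of a gene, which had 1 to 3. They are not measured binding sites, and any link to the course over days was not tested. Of the genes with none of the motifs, all but *Lpin1* fell from day 2 to day 3 in each group. The *Lpin1* window lies inside the annotated gene (GRCm39 chr12:16584818-16703913), not before its outermost start. The *Mvk* and *Insig1* windows run past the annotated gene starts (114582267 and 28276315).

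The course over days was the widest movement of the set, and untreated cells showed it as well as treated ones. In untreated *Trex1* WT/FL cells 28 of 35 genes rose from day 1 to day 2 (median log2 fold change 0.83) and 32 fell from day 2 to day 3 (median -2.16). The same counts were 31 and 32 for *Trex1* WT/FL with 4-OHT, 28 and 32 for untreated *Trex1* FL/FL, and 27 and 32 for *Trex1* FL/FL with 4-OHT. The medians there were 1.01, 0.88 and 0.96 for the rise and -2.19, -2.01 and -2.17 for the fall, while the median over all genes was never more than 0.03 from zero. Of all genes tested, 20.2%, 20.2%, 20.3% and 21.7% rose from day 1 to day 2 in these 4 groups and 17.8%, 18.6%, 18.2% and 18% fell from day 2 to day 3. A gene was called when its adjusted p was below 0.01 by edgeR's quasi-likelihood test, adjusted after Benjamini and Hochberg over all genes, and every adjusted p here is from that test. When the log2 fold change also had to exceed 1.5 in size, 25, 24, 23 and 23 of the 35 genes fell from day 2 to day 3, against 3.96%, 3.89%, 4.02% and 3.79% of all genes. Both day 3 libraries lay below both day 2 libraries for 32, 33, 32 and 32 of the 35 genes, against 34.3%, 34.9%, 34% and 35% of all genes.

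**Figure D1:**
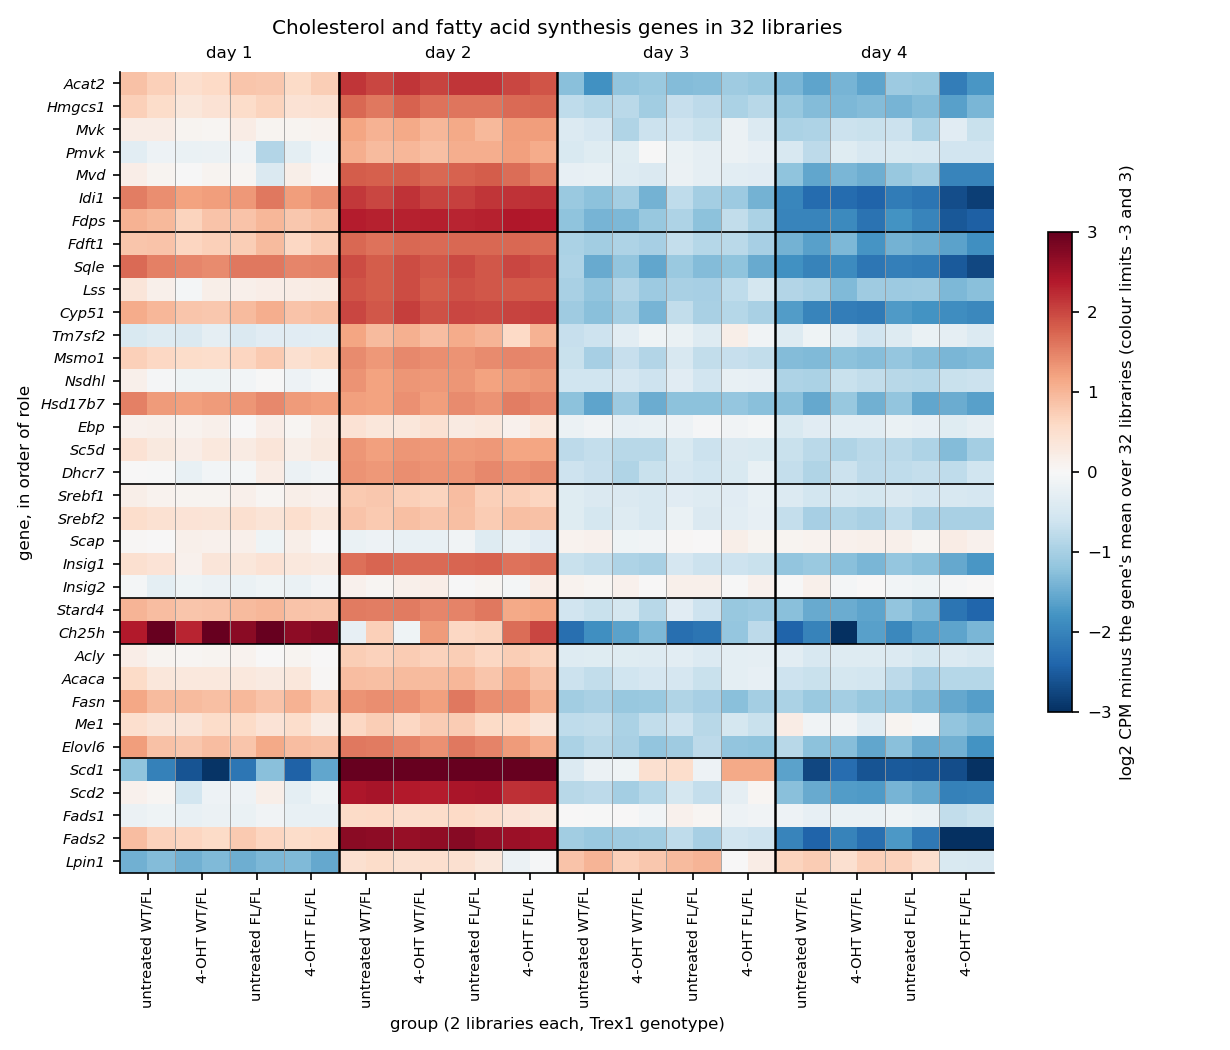
Log2 CPM of the 35 genes in 32 libraries, each centred on the gene's mean over all libraries (red higher, blue lower, colours end at 3 units). Columns are grouped by day and within a day by treatment and *Trex1* genotype, and the rows follow the genes' roles. The day 2 block is red and the day 3 and 4 blocks are blue for most rows in all 4 groups, while *Scap*, *Insig2*, *Ch25h* and *Lpin1* follow other courses.

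From day 3 to day 4 the set fell again in all 4 groups, with smaller medians than from day 2 to day 3. The median fall was widest in 4-OHT-treated *Trex1* FL/FL cells. In untreated *Trex1* WT/FL cells 17 genes fell (median -0.22, against 6.39% of all genes), in 4-OHT-treated *Trex1* WT/FL cells 14 (median -0.23, 5.93%), and in untreated *Trex1* FL/FL cells 18 (median -0.32, 7.18%). With *Trex1* FL/FL and 4-OHT 23 fell (median -0.62, 5.7%). The 18 calls of untreated *Trex1* WT/FL cells in both directions dropped to 8 without replicate 1 of day 3 and to 9 without replicate 2 of day 4, where the numbers only name the 2 libraries. By day 4, 28, 28, 28 and 29 of the 35 genes were below their day 1 level (medians -1.34, -1.33, -1.27 and -1.64, against 26.3%, 26.7%, 26.7% and 27.7% of all genes). The mean log2 CPM was highest on day 2 for 31, 32, 31 and 32 of the 35 genes.

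**Figure D2:**
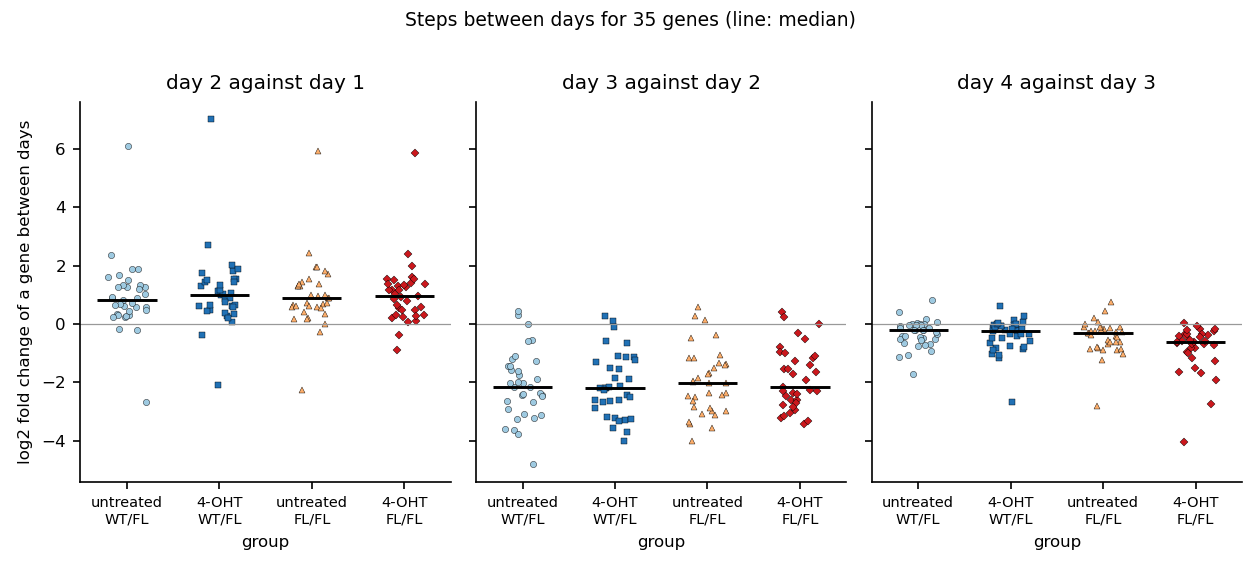
Log2 fold change of each of the 35 genes between neighbouring days in the 4 groups (points: genes, spread sideways at random, black line: median). The medians sit near 1 for day 2 against day 1, near -2 for day 3 against day 2, and between -0.22 and -0.62 for day 4 against day 3, where the 4-OHT-treated *Trex1* FL/FL group is the lowest.

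The 7 early enzymes moved as a block. All 7 rose on day 2 and all 7 fell on day 3 in each of the 4 groups. *Fdps*, which makes farnesyl diphosphate for sterols and protein prenylation, measured 82.2 to 106 CPM (median 95.2) in the 8 libraries of day 1, 254 to 274 (median 259) on day 2, 19.6 to 31.2 (median 23.0) on day 3 and 8.83 to 15.0 (median 13.1) on day 4. These ranges do not overlap, and the fall from day 2 to day 3 in untreated *Trex1* WT/FL cells was to 0.0812 of the day 2 level (log2 fold change -3.62 ± 0.11, adjusted p = 1.8e-18). *Hmgcs1*, whose product opens the committed route to mevalonate, went from 112 to 145 CPM (median 125) over 264 to 299.7 (median 281) to 42.8 to 54.8 (median 50.3) and 28.5 to 40.0 (median 35.1). *Acat2*, the cytosolic thiolase that supplies acetoacetyl-CoA, fell on day 3 by a log2 fold change between -3.59 and -3.06 over the 4 groups, although 22.3% of its 31-base words occur in transcripts of other genes and its counts are less certain for that. *Idi1*, the isopentenyl diphosphate isomerase, had already reached 94.5 to 123 CPM (median 103) on day 1, rose to 165 to 189 (median 181) and ended at 5.75 to 10.6 (median 8.24) on day 4. Here too 18.4% of the words are shared, as are 14.6% for *Fdps*. The kinases *Mvk* and *Pmvk* had the smallest falls of the block, *Mvk* from 32.7 to 39.7 CPM (median 36.5) on day 2 to 8.81 to 14.6 (median 11.4) on day 3. *Mvd*, the decarboxylase between them and *Idi1*, fell again on day 4 in every group (log2 fold change -1.14 in untreated *Trex1* WT/FL cells).

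All 11 enzymes between squalene and the sterols fell from day 2 to day 3 in each group, and 9, 10, 8 and 9 of them had risen on day 2. *Sqle*, the squalene epoxidase and an oxygen-dependent control point of the route, was already at 113 to 136 CPM (median 119) on day 1, then at 149 to 170.0 (median 162), 14.3 to 22.1 (median 17.6) and 6.27 to 12.0 (median 9.92). Its day 2 rise was called in 2 of the 4 groups. *Hsd17b7*, a sterol ketone reductase, had day 1 and day 2 ranges that overlap, 29.4 to 35.8 (median 30.6) and 29.0 to 36.1 (median 32.4), before it dropped to 4.19 to 5.88 (median 5.31) CPM on day 3. For both genes the day 2 step was small beside the day 3 step. *Lss*, which folds squalene epoxide into lanosterol, rose more, from 25.3 to 33.4 CPM (median 29.9) to 91.5 to 101 (median 94.8), and fell to 11.4 to 18.2 (median 13.4) on day 3. *Cyp51*, the lanosterol demethylase, went through 76.5 to 94.1 CPM (median 83.0), 160.4 to 183 (median 176), 16.7 to 26.2 (median 21.8) and 10.1 to 13.6 (median 11.7). *Ebp*, the sterol isomerase, moved least of the 11, between 37.0 to 46.5 CPM (median 42.7) on day 2 and 24.6 to 29.8 (median 27.2) on day 4, with a log2 fold change from day 2 to day 3 of -0.64 to -0.30 over the 4 groups.

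Among the regulators the transcription factor genes and *Insig1* followed the enzymes, and *Scap* and *Insig2* did not. *Srebf2* measured 241 to 272 CPM (median 256) on day 1, 323 to 355 (median 347) on day 2, 132 to 165 (median 146) on day 3 and 94.7 to 116 (median 97.1) on day 4. *Srebf1* measured 99.1 to 108 CPM (median 104), 149 to 181 (median 157), 68.5 to 81.8 (median 73.8) and 65.1 to 71.5 (median 67.7). Both peaked on day 2 without overlap of the day 2 libraries with any other day, and the fall on day 3 in untreated *Trex1* WT/FL cells was -1.27 ± 0.09 for *Srebf2* (adjusted p = 2.7e-12) and -1.19 ± 0.06 for *Srebf1* (adjusted p = 6.6e-15). *Insig1*, itself a known SREBP target, had a wider swing, from 77.6 to 99.8 CPM (median 90.6) to 219.6 to 244 (median 230.3) and then to 36.2 to 49.7 (median 44.4) and 21.2 to 32.5 (median 29.6), with a log2 fold change of -2.42 ± 0.07 from day 2 to day 3 in untreated *Trex1* WT/FL cells (adjusted p = 4.5e-20). *Insig2*, its paralog, measured 22.6 to 26.6 CPM (median 24.7) on day 1 and 27.4 to 30.8 (median 29.8) on day 3. Of its 12 steps between neighbouring days 1 was called, a rise of 0.34 ± 0.08 to day 2 in 4-OHT-treated *Trex1* WT/FL cells (adjusted p = 0.0015). *Scap* moved the other way from the enzymes. It measured 40.5 to 49.4 CPM (median 46.8) on day 1, 33.9 to 40.8 (median 37.7) on day 2, 40.5 to 49.5 (median 46.1) on day 3 and 45.9 to 51.1 (median 48.3) on day 4, and it fell on day 2 in 3 groups and rose on day 3 in 3 groups, by at most 0.41 on the log2 scale.

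*Stard4*, which carries sterol between membranes, followed the enzymes, with 67.2 to 76.1 CPM (median 70.3) on day 1, 82.5 to 112 (median 107) on day 2, 17.2 to 29.8 (median 24.0) on day 3 and 7.17 to 16.5 (median 13.2) on day 4. *Ch25h* took another course and fell from day 1 on. Its libraries measured 13.9 to 29.3 CPM (median 19.0) on day 1, 2.38 to 11.5 (median 4.57) on day 2, 0.550 to 1.61 (median 0.823) on day 3 and 0.304 to 1.06 (median 0.787) on day 4. The 2 libraries of a group lay far apart on day 1, 14.8 and 29.3 CPM in untreated and 13.9 and 26.2 in 4-OHT-treated *Trex1* WT/FL cells, and on days 3 and 4 the values rest on 18 to 94 counts. The step to day 2 was called in 3 groups (log2 fold change -2.67 ± 0.45, -2.08 ± 0.43 and -2.28 ± 0.44) and was -0.88 ± 0.41 in 4-OHT-treated *Trex1* FL/FL cells (adjusted p = 0.091). The step to day 3 was called in all 4.

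All 5 genes of fatty acid synthesis fell from day 2 to day 3 in each group. *Fasn*, the fatty acid synthase, measured 149 to 193 CPM (median 167), 181 to 262 (median 224), 36.6 to 46.4 (median 42.5) and 27.6 to 45.2 (median 39.1) on the 4 days. *Acly*, which cleaves citrate to acetyl-CoA for both pathways, measured 209 to 238 CPM (median 219.5), 323 to 352 (median 342), 156 to 172 (median 161) and 145 to 166 (median 156). The rise of *Fasn* to day 2 was called in 2 of the 4 groups, that of *Acly* in all 4. *Acaca*, whose product makes malonyl-CoA and 31.1% of whose words are shared with other genes, fell from 75.9 to 91.3 CPM (median 82.0) on day 2 to 25.6 to 35.9 (median 29.3) on day 3. *Elovl6*, which lengthens palmitate, fell from 20.7 to 29.0 CPM (median 27.3) to 4.17 to 5.63 (median 4.74). *Me1*, the cytosolic malic enzyme that supplies NADPH, was the single gene of the 5 that came back on day 4. It rose then by 0.82 ± 0.12, 0.63 ± 0.12 and 0.76 ± 0.12 on the log2 scale in untreated *Trex1* WT/FL, 4-OHT-treated *Trex1* WT/FL and untreated *Trex1* FL/FL cells, and it fell in 4-OHT-treated *Trex1* FL/FL cells (-0.64 ± 0.13). Here 17.0% of the words are shared.

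All 4 desaturases rose on day 2 and fell on day 3 in each group. *Scd1* and *Scd2* encode stearoyl-CoA desaturases, which make oleate. *Scd1* had the widest swing of the set. It was low on day 1 at 0.498 to 1.76 CPM (median 0.926), reached 55.8 to 98.8 (median 77.8) on day 2, and returned to 3.05 to 9.08 (median 4.73) and 0.484 to 1.31 (median 0.658) on days 3 and 4. In untreated *Trex1* WT/FL cells the rise was 6.09 ± 0.32 on the log2 scale (adjusted p = 1.9e-11) and the fall -4.81 ± 0.29 (adjusted p = 1.4e-10). *Scd2* measured 129 to 214 CPM (median 171), 859.9 to 1050.1 (median 1003), 93.1 to 198 (median 112) and 46.3 to 79.2 (median 61.8) on the 4 days. *Fads2*, which opens the synthesis of polyunsaturated fatty acids, measured 44.6 to 58.1 CPM (median 47.8), 176 to 203 (median 192), 14.2 to 20.4 (median 15.1) and 2.27 to 9.28 (median 6.67). For these 3 genes no day 2 library overlapped a library of another day. *Fads1*, which acts after *Fads2* and lies near it on chromosome 19 (GRCm39 10160167 to 10174241, *Fads2* 10038130 to 10079203), moved far less, with 149.7 to 163 CPM (median 154), 222 to 268 (median 256), 159 to 192 (median 176) and 105 to 159 (median 152). *Scd1* and *Scd2* share 5.87% and 4.72% of their words with other genes, so a small part of their reads may have been counted elsewhere or come from other genes.

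*Lpin1*, which makes diacylglycerol and also acts as a transcriptional coregulator, did not fall from day 2 to day 3 in any group. It measured 7.28 to 8.61 CPM (median 8.08) on day 1, and in untreated *Trex1* WT/FL cells it measured 29.6 and 31.0 CPM on day 2, 38.5 and 43.1 on day 3 and 33.9 and 36.1 on day 4. Its rise from day 1 to day 2 was called in all 4 groups (1.34 for *Trex1* FL/FL with 4-OHT and 1.83, 1.87 and 1.88 in the others), and the further rise to day 3 in both untreated groups (0.43 and 0.57).

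Levels can be set side by side between genes only per length, here as CPM per kilobase of annotated exon in untreated *Trex1* WT/FL cells. The length is that of all annotated exons of a gene, not of the transcripts present, so the order also depends on the annotation. On day 2 *Scd2* stood highest at 138, ahead of *Fdps* (53.1), *Hmgcs1* (52.6), *Idi1* (48.5), *Insig1* (47.6) and *Fads1* (46.9). On day 4 *Fads1* led at 27.2, ahead of *Srebf1* (11.6), *Srebf2* (11.3), *Acly* (10.8) and *Scd2* (9.68). Over the 2 days *Fdps* went from 53.1 to 2.69 and *Scap* from 3.05 to 3.68 per kilobase.

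Neighbouring gene lists did not all follow. Beside them, 20.2% of all genes rose and 18.1% fell on day 2 in untreated *Trex1* WT/FL cells, and 17.1% rose and 17.8% fell on day 3. Of 30 other genes of lipid synthesis, 29 were tested, and in untreated *Trex1* WT/FL cells 10 rose and 4 fell on day 2 (median 0.12) while 17 fell and 2 rose on day 3 (median -0.47). Their widest steps were those of *Acss2*, which makes acetyl-CoA from acetate (3.32 ± 0.14 to day 2), and of *Aacs*, which activates acetoacetate (-2.20 ± 0.08 to day 3). The 12 genes of SREBP processing moved in both directions, with 1 rise and 1 fall on day 2 (median 0.05) and 2 rises and 4 falls on day 3 (median -0.06), and log2 fold changes between -0.51 and 0.42. Of the 12 LXR targets and cholesterol export genes, which took another course on day 3 than the enzymes, 10 rose on day 2 (median 0.66), and on day 3 7 rose and 2 fell (median 0.22), with *Abca1*, the main cholesterol exporter, up by 2.22 ± 0.08 and again by 1.16 ± 0.08 on the log2 scale. Of 14 genes of fatty acid oxidation, 5 rose on day 2 (median 0.15), and 2 rose and 3 fell on day 3 (median -0.08). In the 3 other groups the list medians had the same sign as here for other lipid synthesis and the LXR list in both steps, and for the processing and oxidation lists they lay between -0.13 and 0.08.

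Other programs moved over the same days, and their part in the course of the lipid genes was not tested. In untreated *Trex1* WT/FL cells all 20 interferon-inducible genes rose on day 2 (median 3.66), and on day 3 2 rose and 1 fell (median 0.06). Of 24 proliferation genes 23 fell on day 2 (median -0.68) and all 24 on day 3 (median -3.66). All 24 rose again on day 4 (median 1.12), when most lipid genes did not. The summed level of the macrophage markers was 17119 to 19216 CPM on day 1, 25772 to 34882 on day 2, 35700.1 to 45905 on day 3 and 26510.0 to 31572 on day 4. In bulk RNA fewer cells of a type and less RNA per cell cannot be told apart.

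**Figure D3:**
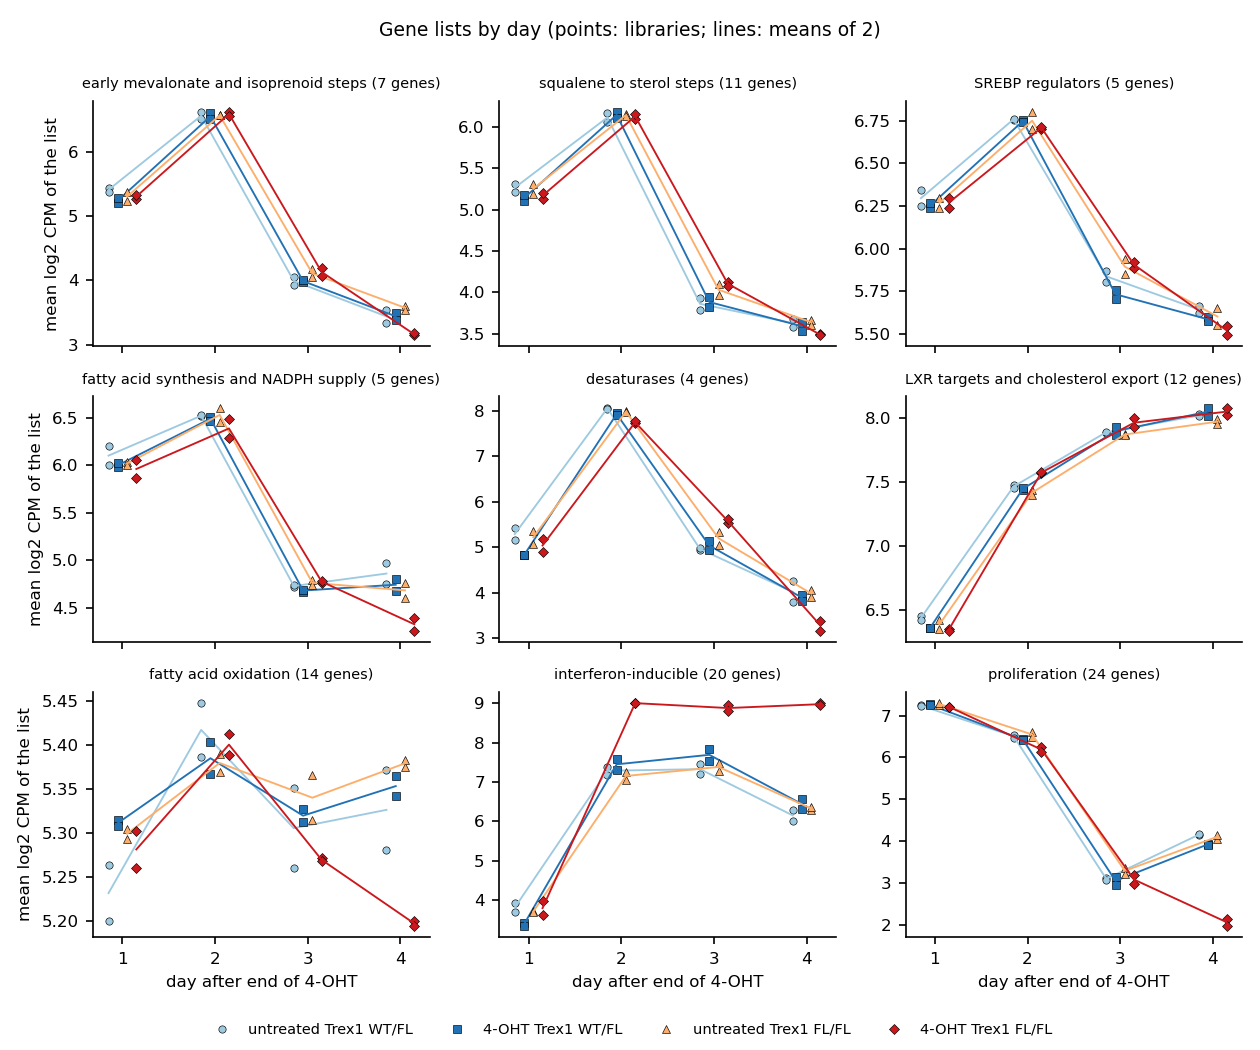
Mean log2 CPM of 9 gene lists against the day after the end of 4-OHT (points: libraries, lines: means of 2, colours and shapes: the 4 groups, each panel with its own vertical scale). Of the 7 role lists of the set 5 are drawn, and these peak on day 2 in all groups, while the list of *Stard4* and *Ch25h* (highest on day 1) and *Lpin1* (highest on day 3) are not drawn. The LXR list climbs to day 4. On day 4 the 4-OHT-treated *Trex1* FL/FL libraries lie below all others in the 5 panels of the set and in the oxidation and proliferation panels, and above all others in the interferon-inducible panel.

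The main comparison of the study set 4-OHT-treated *Trex1* FL/FL cells against 4-OHT-treated *Trex1* WT/FL cells. Next to the course over days the differences were small. The paper called genes at a false discovery rate below 0.01 and an absolute log fold change above 1.5. With both limits, 0 of the 35 genes were called here on any day. The counts that follow use the adjusted p alone. On day 2 *Lpin1* and *Stard4* were lower, on day 3 8 genes were higher and the same 2 lower, and on day 4 9 genes were lower, *Fads2*, *Lpin1*, *Me1* and *Stard4* by the most. The largest change among the called genes was that of *Fads2* on day 4, at -1.22 on the log2 scale. On day 1 no gene was called, edgeR's quasi-likelihood test gave 0 of the 35 an unadjusted p below 0.05 (2.02% of all genes had one), and DESeq2 also called 0. Of all genes 0.00655% were called higher and 0.0131% lower. On day 2 2 of 35 (5.71%) were lower, against 2.48% of all genes, with a median of -0.04. On day 3 8 (22.9%) were higher against 6.69% of all genes, and 2 (5.71%) lower against 5.42%, with a median of 0.16, when untreated cells of the 2 genotypes had a median of 0.11 with 0 genes called. On day 4 9 (25.7%) were lower, against 11.7% of all genes, with a median of -0.19 beside -0.04 over all genes.

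**Figure D4:**
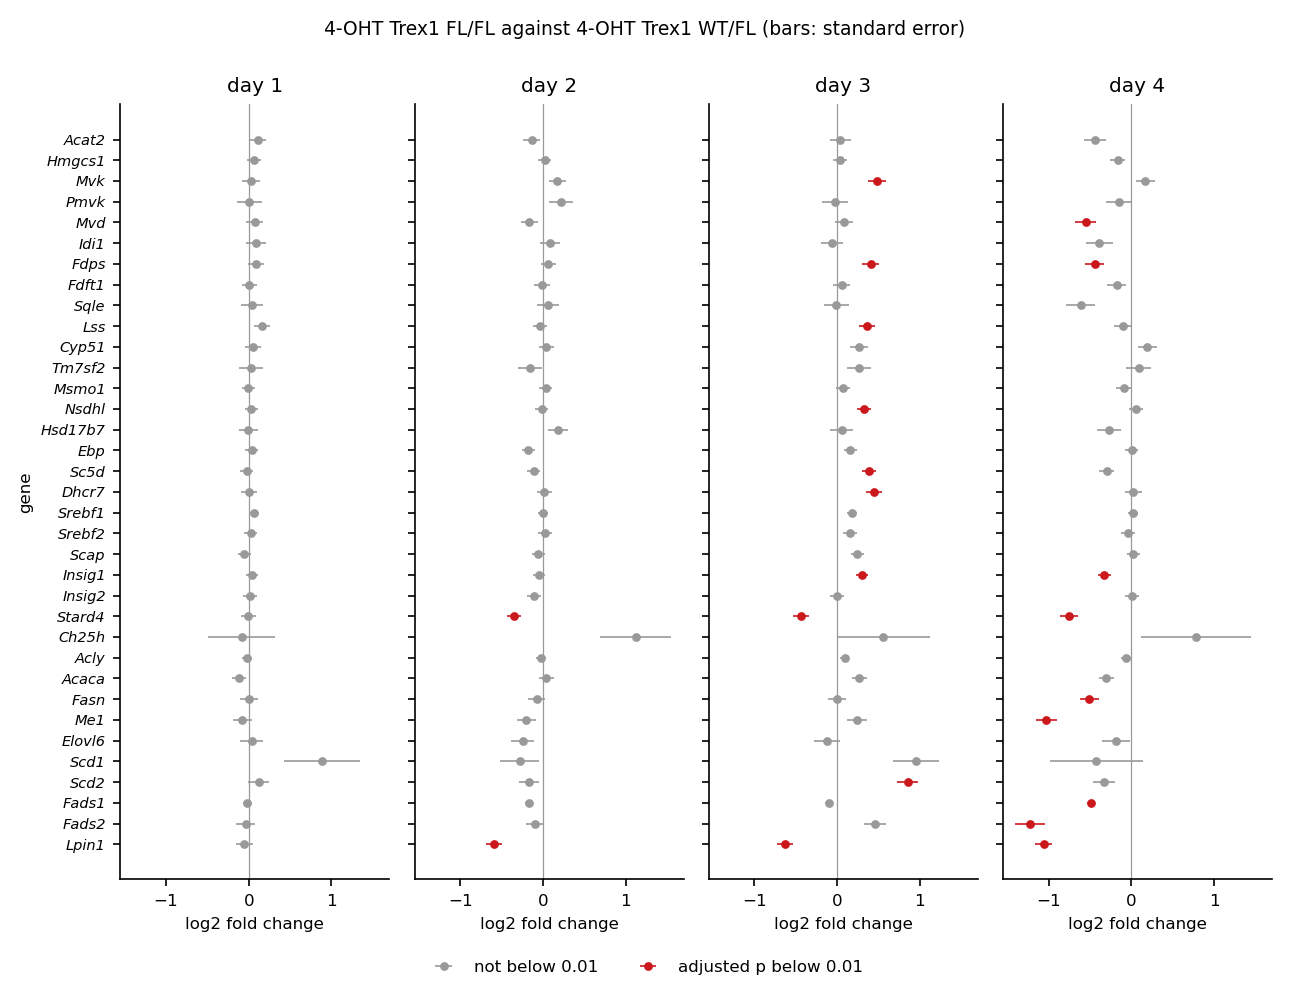
Log2 fold change of 4-OHT-treated *Trex1* FL/FL against 4-OHT-treated *Trex1* WT/FL cells for the 35 genes on days 1 to 4 (points: estimates, bars: standard error, red: adjusted p below 0.01). The red points number 0, 2, 10 and 9 on the 4 days, to the left for *Lpin1* and *Stard4* on days 2 to 4, to the right for 8 genes on day 3, and all to the left on day 4.

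*Lpin1* was called on days 2, 3 and 4. On day 1 the 4-OHT-treated *Trex1* FL/FL libraries held 8.42 and 7.28 CPM and the 4-OHT-treated *Trex1* WT/FL libraries 7.78 and 8.48. On day 2 the values were 18.9 and 20.8 against 29.5 and 30.1, on day 3 21.5 and 24.9 against 34.99 and 37.3, and on day 4 15.4 and 15.3 against 29.5 and 34.6. The groups overlap on day 1 and lie apart on the other 3 days, where the log2 fold changes were -0.59 ± 0.10 (adjusted p = 6.3e-05), -0.63 ± 0.10 (adjusted p = 1.9e-05) and -1.06 ± 0.10 (adjusted p = 2.2e-09). Each held when any 1 of the 4 libraries was left out. Untreated libraries of both genotypes measured 33.9 and 36.1 CPM (*Trex1* WT/FL) and 34.3 and 30.2 (*Trex1* FL/FL) on day 4, all above the treated *Trex1* FL/FL libraries.

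*Stard4* was lower as well. After 4-OHT the *Trex1* FL/FL libraries held 82.5 and 86.1 CPM on day 2, 17.2 and 17.7 on day 3 and 8.19 and 7.17 on day 4. The *Trex1* WT/FL libraries held 111 and 105, 25.9 and 21.2 and 13.3 and 12.6. The libraries of the groups did not overlap on any of the 3 days. The log2 fold changes were -0.35 ± 0.09 (adjusted p = 0.0049), -0.44 ± 0.09 (adjusted p = 0.0012) and -0.75 ± 0.11 (adjusted p = 3.2e-06). The day 4 call held without any 1 library, whereas the day 2 call was lost without any of the 4 (adjusted p 0.016 to 0.071) and the day 3 call without *Trex1* WT/FL replicate 1 (-0.28, adjusted p = 0.094) or either *Trex1* FL/FL library (0.019 and 0.013).

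The 8 genes that were higher on day 3 were *Scd2*, 4 late sterol enzymes (*Lss*, *Nsdhl*, *Sc5d* and *Dhcr7*), *Mvk*, *Fdps* and *Insig1*. After 4-OHT *Scd2* measured 157 and 198 CPM in *Trex1* FL/FL and 93.1 and 104 in *Trex1* WT/FL cells, a log2 fold change of 0.85 ± 0.13 (adjusted p = 7.2e-05) that held without any 1 library. On day 2 the order had been the other way, with 859.9 and 874 against 985 and 963 (-0.17 ± 0.12, adjusted p = 0.48, not past the threshold). *Scd1* and *Fads2* had day 3 log2 fold changes of 0.95 ± 0.28 and 0.45 ± 0.13 that missed it (adjusted p = 0.02 and 0.016). *Mvk*, the mevalonate kinase, measured 14.6 and 12.4 against 8.81 and 10.5 CPM, with 0.48 ± 0.11 (adjusted p = 0.0028). *Dhcr7*, the reductase of the last step of one branch to cholesterol, measured 18.9 and 22.2 against 14.0 and 16.4, with 0.45 ± 0.10 (adjusted p = 0.0012). The libraries of the 2 groups did not overlap for these 3 genes, which is no further support since the calls come from the same libraries. *Insig1* measured 46.0 and 44.3 against 37.2 and 36.2, with 0.30 ± 0.07 (adjusted p = 0.0035). Untreated cells held 49.7 and 45.02 CPM of *Insig1* (*Trex1* FL/FL) and 44.5 and 42.4 (*Trex1* WT/FL), so the treated *Trex1* FL/FL libraries lay within the untreated range and the treated *Trex1* WT/FL libraries below it. Both 4-OHT-treated *Trex1* FL/FL libraries lay above the other 6 of day 3 for 5 of the 8 genes (*Scd2*, *Lss*, *Nsdhl*, *Sc5d* and *Dhcr7*) and not for *Mvk*, *Fdps* or *Insig1*. The 8 were picked as higher in these same libraries, so this placement describes them and is no separate test. Both 4-OHT-treated *Trex1* WT/FL libraries lay below the other 6 of day 3 for *Insig1*, *Sc5d* and *Scd2*, so part of these differences lies in low control libraries. The log2 fold changes of *Sc5d*, *Fdps*, *Lss* and *Nsdhl* were 0.39, 0.41, 0.36 and 0.32.

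Apart from that of *Scd2*, each of these day 3 increases was lost without at least 1 of the 4 libraries. The count of 10 called genes in both directions became 3 without 4-OHT-treated *Trex1* WT/FL replicate 1 (*Scd2* and *Lpin1* of the 10, and *Cyp51*, which was not among them), 6 without replicate 2, and 4 without either 4-OHT-treated *Trex1* FL/FL library. *Mvk* went to 0.36 (adjusted p = 0.096) without *Trex1* WT/FL replicate 1 and to 0.36 (0.08) without *Trex1* FL/FL replicate 1. *Dhcr7* went to 0.33 (0.059) without *Trex1* WT/FL replicate 1 and to 0.32 (0.063) without *Trex1* FL/FL replicate 2. *Insig1*, *Nsdhl* and *Sc5d* missed the threshold without any of the 4 libraries, with adjusted p of at most 0.044, 0.085 and 0.016. *Lss* missed it without 3 of them, all but *Trex1* FL/FL replicate 1 (at most 0.24), and *Fdps* without replicate 1 of either genotype (0.14 and 0.12).

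On day 4 the largest decrease was that of *Fads2*. After 4-OHT it measured 3.68 and 2.27 CPM in *Trex1* FL/FL and 7.55 and 6.40 in *Trex1* WT/FL cells. Without 4-OHT it measured 9.28 and 6.94 in *Trex1* FL/FL and 7.78 and 5.79 in *Trex1* WT/FL cells. Both libraries of the deleted cells lay below the other 6, and the log2 fold change was -1.22 ± 0.18 (adjusted p = 1.6e-05). *Me1* measured 9.97 and 9.17 CPM against 20.9 and 18.1, with -1.03 ± 0.12 (adjusted p = 2.4e-07). *Fads1* measured 105 and 111 against 152 and 152, a smaller change of -0.49 ± 0.05 (adjusted p = 1.8e-08), after -0.17 ± 0.05 on day 2 (adjusted p = 0.025) and -0.10 ± 0.05 on day 3 (adjusted p = 0.21). The calls of *Fads2*, *Me1*, *Fads1*, *Lpin1* and *Stard4* on day 4 held when any 1 of the 4 libraries was left out.

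The other 4 genes lower on day 4 were less certain. *Mvd* measured 5.54 and 5.51 against 8.36 and 7.85 CPM (-0.55 ± 0.13, adjusted p = 0.0014), and its call was lost without any library but *Trex1* WT/FL replicate 2 (at most 0.021). *Fasn* measured 30.1 and 27.6 against 42.6 and 39.4 (-0.51 ± 0.11, adjusted p = 0.0015), and lost its call without *Trex1* WT/FL replicate 1 (0.024) or *Trex1* FL/FL replicate 2 (0.028). *Insig1*, higher on day 3, measured 24.4 and 21.2 against 29.7 and 27.6 (-0.33 ± 0.08, adjusted p = 0.0014), and lost its call without the same 2 libraries (0.033 and 0.062). *Fdps* measured 8.83 and 9.44 against 13.6 and 11.1 (-0.45 ± 0.12, adjusted p = 0.006), and lost its call without *Trex1* WT/FL replicate 1 (-0.29, 0.15) or either *Trex1* FL/FL library (0.074 and 0.021). Without 4-OHT-treated *Trex1* WT/FL replicate 1 the day 4 count went from 9 to 5.

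**Figure D5:**
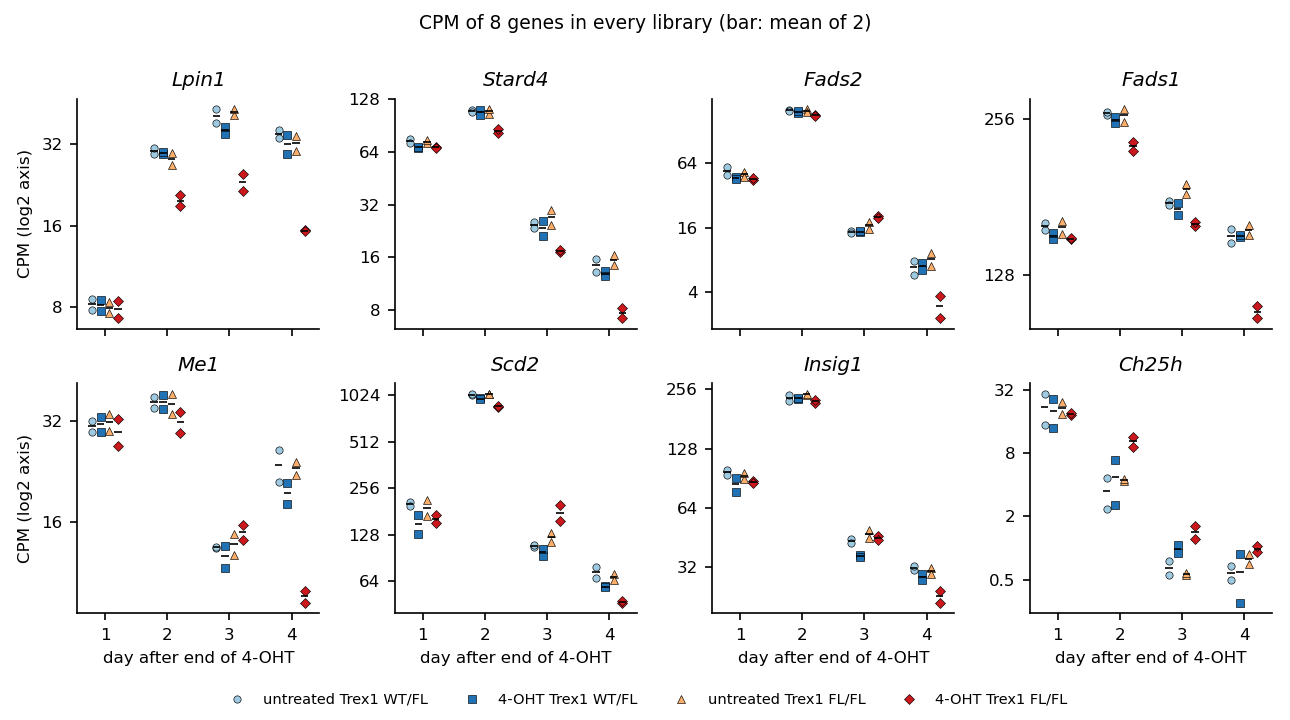
CPM of *Lpin1*, *Stard4*, *Fads2*, *Fads1*, *Me1*, *Scd2*, *Insig1* and *Ch25h* in every library on a log2 axis against the day (points: libraries, bars: means of 2, colours and shapes: the 4 groups, each panel with its own scale). The 4-OHT-treated *Trex1* FL/FL libraries lie below the other 6 from day 2 on for *Lpin1*, *Stard4* and *Fads1* and on day 4 for *Fads2*, *Me1*, *Scd2* and *Insig1*, and above them on day 3 for *Scd2* and *Fads2* and from day 2 on for *Ch25h*.

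The transcription factor genes themselves did not pass the test between the genotypes on any day. *Srebf1* after 4-OHT measured 68.7 and 67.2 CPM on day 4 in *Trex1* FL/FL and 68.1 and 66.2 in *Trex1* WT/FL cells, a log2 fold change of 0.02 ± 0.06 (adjusted p = 0.88). *Srebf2* measured 96.8 and 96.4 against 102 and 97.4 (-0.05 ± 0.09, adjusted p = 0.75). On day 3 the values were 0.18 ± 0.06 for *Srebf1* (adjusted p = 0.048) and 0.16 ± 0.08 for *Srebf2* (adjusted p = 0.22). The day 3 values of *Scap* were 49.5 and 46.9 against 40.5 and 41.0 CPM (0.24 ± 0.08, adjusted p = 0.031), and those of *Insig2* 27.4 and 30.1 against 30.0 and 27.9 (-0.01 ± 0.08, adjusted p = 0.98). A p above the threshold does not show that these levels were equal.

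*Ch25h*, an interferon-inducible gene in macrophages, was tested with wide error. Replicate 2 measured more than replicate 1 in every group, and the fit without pairing counted this as error. On day 2 the 4-OHT-treated *Trex1* FL/FL libraries held 9.14 and 11.5 CPM and the 4-OHT-treated *Trex1* WT/FL libraries 2.55 and 6.84, and the untreated libraries 4.38 and 4.53 (*Trex1* FL/FL) and 2.38 and 4.61 (*Trex1* WT/FL). Both treated *Trex1* FL/FL libraries were above the other 6, as they were on days 3 and 4, and the log2 fold change of 1.12 ± 0.43 did not pass (adjusted p = 0.11). It was 0.59 without *Trex1* WT/FL replicate 1 and 2.01 without replicate 2 (adjusted p = 0.58 and 0.018). Among the alternative fits it was called only in the one with no filter on low counts (adjusted p = 2.6e-09). On days 3 and 4 the values were 0.56 ± 0.56 (adjusted p = 0.57) and 0.78 ± 0.67 (adjusted p = 0.43).

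The genotype difference itself changed between days for some genes. From day 3 to day 4 it fell for 8 of 35 genes, by 1.68 for *Fads2*, 1.27 for *Me1*, 1.18 for *Scd2* and 0.85 for *Fdps* on the log2 scale (adjusted p = 3.2e-05, 1.6e-05, 0.00029 and 0.001), and from day 2 to day 3 it rose for *Scd2* (1.02 ± 0.18, adjusted p = 0.004). Of all genes 2.03% had a difference that fell from day 3 to day 4 and 0.328% one that rose from day 2 to day 3. For *Insig1* and *Fdps* the difference was called higher on day 3 and lower on day 4, and for *Scd2* higher on day 3 with -0.33 ± 0.13 on day 4 (adjusted p = 0.069). The *Fdps* change lost its call without replicate 1 of either day 4 group (adjusted p 0.014 and 0.012), and the day 2 to day 3 change of *Scd2* lost its call without 6 of the 8 libraries (at most 0.026).

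Tamoxifen and its metabolites are known to bind the sterol isomerase Ebp besides the estrogen receptor part of the Cre fusion, and treated and untreated cells were compared within each genotype. In *Trex1* WT/FL cells edgeR and DESeq2 each called 0 of the 35 genes on every day, when 0.00655%, 0.0918%, 0.341% and 0.216% of all genes were called on days 1 to 4. An unadjusted p below 0.05 was found for 8, 0, 5 and 7 of the 35 genes, and for 2.48%, 3.47%, 8.4% and 7.08% of all genes. The median log2 fold change on day 1 was -0.14 in *Trex1* WT/FL and -0.09 in *Trex1* FL/FL cells. In *Trex1* FL/FL cells edgeR called 0 genes on day 1, against 0.0131% of all genes, and DESeq2 0, with 4 of the 35 and 7% of all genes at an unadjusted p below 0.05. Leaving out untreated *Trex1* FL/FL replicate 1 gave 2 calls. On day 2 3 genes were lower (*Lpin1*, *Stard4* and *Fads1*, against 3.59% of all genes). On day 3 the same 3 were lower (7.57%) and *Scd2* was higher (8.12%). On day 4 11 were lower, against 11.2% of all genes, with a median of -0.21.

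The 11 genes lower in treated *Trex1* FL/FL cells on day 4 were *Fads2* (-1.45 ± 0.18, adjusted p = 1.4e-06), *Me1* (-1.28 ± 0.12, 4.7e-09), *Lpin1* (-1.07 ± 0.10, 1.5e-09) and *Stard4* (-1.01 ± 0.11, 1.8e-08), together with *Mvd*, *Acat2*, *Fdps*, *Idi1*, *Scd2*, *Fads1* and *Insig1* (log2 fold changes -0.90 to -0.43). On day 4 the untreated *Trex1* FL/FL libraries held 24.2 and 22.2 CPM of *Me1* and 16.5 and 14.5 of *Stard4*, all above the treated ones. On day 2 they held 29.7 and 26.9 CPM of *Lpin1*, 106 and 112 of *Stard4* and 268 and 253 of *Fads1*, the last against 232 and 222 with 4-OHT. On day 3 they held 41.2 and 43.1, 29.8 and 24.4 and 192 and 183 CPM of the 3 genes, with 159 and 162 of *Fads1* after 4-OHT, and 131 and 115 CPM of *Scd2*. The log2 fold changes were -0.52 ± 0.10, -0.37 ± 0.09 and -0.20 ± 0.05 on day 2, and on day 3 -0.86 ± 0.10, -0.64 ± 0.09, -0.23 ± 0.05 and, for *Scd2*, 0.53 ± 0.13. This comparison shares the 4-OHT-treated *Trex1* FL/FL libraries with the one between genotypes, so the 2 are not independent. The day 2 calls rested on single libraries. *Lpin1* was called without any library but 4-OHT-treated replicate 1 (-0.45, adjusted p = 0.014), and without that library the count was 0. Without 4-OHT-treated replicate 2 it was 1. On day 3 *Scd2* lost its call without untreated replicate 2 (adjusted p = 0.074) or 4-OHT-treated replicate 2 (0.10), and *Fads1* without replicate 1 of either group (0.034 and 0.023).

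Untreated cells of the 2 genotypes served as the background. edgeR and DESeq2 each called 0 of the 35 genes between untreated *Trex1* FL/FL and *Trex1* WT/FL cells on each day, when 0%, 0%, 0% and 0.0655% of all genes were called on days 1 to 4. An unadjusted p below 0.05 was found for 1, 0, 7 and 5 of them, and for 7.4%, 3.85%, 3.07% and 15.8% of all genes. The medians of the 35 were -0.03, -0.01, 0.11 and 0.01, and on day 3 30 of the 35 log2 fold changes were above 0. Leaving out untreated *Trex1* FL/FL replicate 1 of day 1 gave 2 calls on that day. The library pair of that group had the largest chi-square of the series (51.5 per degree of freedom). Taking the untreated difference off the treated one, as an interaction of genotype and treatment, left 7 genes lower on day 4 (*Fads2*, *Me1*, *Lpin1*, *Stard4*, *Mvd*, *Acat2* and *Fads1*, against 5.24% of all genes). On day 3 it left *Lpin1* and *Stard4* lower (2%) and *Mvk* higher (2.65%).

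The other lists were compared between the genotypes after 4-OHT in the same way, beside 5.69% of all genes higher and 2.48% lower on day 2, 6.69% and 5.42% on day 3, and 9.84% and 11.7% on day 4. Of the 29 tested genes of other lipid synthesis, 3 differed on day 2 (1 of them higher), 5 on day 3 (2 higher) and 8 on day 4, all lower (medians -0.05, 0.03 and -0.10). Of the 12 LXR targets and export genes 4 were higher on day 2, 6 differed on day 3 (4 higher), and 6 on day 4 with 3 in each direction. *Abcg1*, a cholesterol exporter, was higher by 0.61 ± 0.09 on day 2 (adjusted p = 2.3e-05) and *Abca1* lower on day 4, at -0.61 ± 0.08 (adjusted p = 1.3e-06), so the list did not move one way. Of the 12 SREBP processing genes 1, 2 and 1 were higher on days 2, 3 and 4 and 2 were lower on day 4. Of the 14 genes of fatty acid oxidation 4 were lower on day 3 and 6 on day 4 (medians -0.07 and -0.18). On day 1 none of these lists had a gene called or a gene with an unadjusted p below 0.05 in edgeR's test.

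Larger programs moved beside the lipid genes in the same libraries, and their part in these differences was not tested. All 20 interferon-inducible genes were higher in 4-OHT-treated *Trex1* FL/FL cells on days 2, 3 and 4 (medians 1.58, 1.28 and 2.71). On day 1 edgeR called 0 of them, and 10 had an unadjusted p below 0.05 (2.02% of all genes). That day all 20 were lower with 4-OHT than without it in *Trex1* WT/FL cells (median -0.42, 9 with an unadjusted p below 0.05). The same comparison in *Trex1* FL/FL cells had a median of 0.12 with 2 such genes, so the day 1 gap lay mostly in the control. Of the 24 proliferation genes 22 were lower on day 4 (median -1.89), 5 on day 2 (-0.26) and 2 on day 3 (-0.01), while 1 was higher on each of these days. The summed level of the 3 endothelial markers after 4-OHT was 68.1 and 69.6 CPM in *Trex1* FL/FL cells on day 2 against 15.0 and 19.5 in *Trex1* WT/FL cells, 39.6 and 42.0 against 21.7 and 25.3 on day 3, and 31.5 and 33.5 against 9.24 and 11.0 on day 4. All 3 of these markers were above 1 CPM in at least 1 library. The macrophage marker sum was 25772 and 27496 against 32604 and 34882 CPM on day 2, 35700.1 and 36020 against 43340.0 and 45320.1 on day 3, and 26510.0 and 28099 against 29524 and 30601 on day 4.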

How the data were processed

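Bulk RNA-seq of 32 BMDM libraries was analysed. The authors demultiplexed the reads with JE demultiplexer, checked them with FastQC 11.9, quantified them against GRCm39 with Salmon and summarised them with tximport, and they tested genes with DESeq2 1.32, as the paper's methods and the submitters' processing notes state. In the deposited table the estimated counts of a gene are whole numbers without normalization. Of 54281 identifiers 51048 matched GENCODE vM39, and the unmatched rows held 0.32% of the counts.

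Genes with at least 10 counts as set by filterByExpr (15257) were normalised with TMM factors and fitted with edgeR 4.0.16 in R 4.3.3, by the robust quasi-likelihood test with 16 group means over all 32 libraries (16 residual degrees of freedom, common biological coefficient of variation 0.0912). Contrasts compared genotypes within a treatment and day, treatments within a genotype and day, and days within a group. The standard error is the absolute log2 fold change divided by the square root of F. CPM values use TMM factors, log2 CPM a prior count of 2, and fold changes a prior count of 0.125. The procedure was tested on simulated data with known fold changes, for the genotype comparison after 4-OHT on day 4. Of 50 changed genes 33 were called at a log2 fold change of 0.5 and 49 at 1. In each run 2 unchanged genes were called, so changes near 0.5 or smaller can be missed. An exact permutation test of 2 libraries against 2 cannot go below p = 0.33 and was not used.

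The 35 genes, the lists beside them and the rule for which were described by name (the regulators and *Ch25h* always with values per library, likewise the 4 genes with the largest called change in each genotype or treatment comparison, other members as examples of their role, and at most 3 called genes of each other list) were chosen with earlier results of these data known. The lists of other lipid synthesis, SREBP processing, LXR targets and export, fatty acid oxidation, interferon-inducible and proliferation genes were used for counts and medians. Single genes of these lists were named by the rule above. The cell type markers were used for detection and summed levels. Transcript words of 31 bases that occur in more than 1 gene were counted as a measure of how far Salmon could split reads between genes. Alternatives were DESeq2 1.42.0, RLE factors, no filter on low counts, other thresholds, a fit of the libraries compared alone, the interaction with untreated genotypes, and leaving out each library. Totals were 35120505 to 63760884 estimated counts a library.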

Additional observations from a re-analysis of the deposited data

Results flagged for a closer look

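The genotype difference after 4-OHT (*Trex1* FL/FL minus *Trex1* WT/FL, log2 scale) changed between neighbouring days by edgeR's test of the difference between differences for 9 gene and day pairs. From day 2 to day 3 it rose by 1.02 for *Scd2*. From day 3 to day 4 the change was -1.68 for *Fads2*, -1.27 for *Me1*, -1.18 for *Scd2*, -0.85 for *Fdps*, -0.69 for *Sc5d*, -0.63 for *Insig1*, -0.57 for *Acaca* and -0.39 for *Fads1*. The *Scd2* change from day 2 to day 3 lost its call without 6 of the 8 libraries, the *Acaca* change without 7 (adjusted p at most 0.026) and the *Fdps* change without 2, and the other 6 kept theirs without any 1 library.

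The genotype difference also differed between treated and untreated cells for 10 gene and day pairs, by the interaction of genotype and treatment. On day 3 it was -0.68 for *Lpin1*, -0.58 for *Stard4* and 0.65 for *Mvk*. On day 4 it was -1.48 for *Fads2*, -0.99 for *Me1*, -0.95 for *Lpin1*, -0.85 for *Stard4*, -0.84 for *Mvd*, -0.80 for *Acat2* and -0.53 for *Fads1*. The day 3 values of *Stard4* and *Mvk* each lost their call without 6 of the 8 libraries (adjusted p at most 0.075 and 0.084) and that of *Lpin1* without 3 (at most 0.017). On day 4 *Mvd* lost its call without untreated *Trex1* WT/FL replicate 2 (0.010) and *Acat2* without 4 of the 8 libraries (at most 0.034), and the other 5 kept theirs without any 1 library.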

How the results depend on the processing

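Counts of called genes with another normalization (RLE factors) or DESeq2 stayed within 1.5 times of those reported, and no direction turned under any alternative. RLE factors shifted the median of all genes by -0.04 to 0.02. Of 356 counts recomputed 313 stayed within 1.5 times, and of the recomputed values of named genes 373 stayed on their side of the threshold, 87 lost and 1 gained the call. With no filter on low counts the count between genotypes on day 4 was 14, between treatments 2 (day 1) and 1 (day 4) in *Trex1* WT/FL and 5 (day 2) and 8 (day 3) in *Trex1* FL/FL cells. With an absolute log2 fold change above 1.5 as well, it was 0 between genotypes and between treatments of *Trex1* FL/FL cells on days 2, 3 and 4. In the order untreated *Trex1* WT/FL, 4-OHT *Trex1* WT/FL, untreated *Trex1* FL/FL and 4-OHT *Trex1* FL/FL, it was 8, 10, 8 and 6 for day 2 against day 1, 1, 1, 1 and 5 for day 4 against day 3, and 17, 16, 16 and 19 for day 4 against day 1. At an adjusted p below 0.05 the day 3 count between treatments of *Trex1* FL/FL cells was 8. The interaction with untreated genotypes gave 0 on day 2 and 3 on day 3. A fit of the compared libraries alone gave 6 for genotypes on day 3 and 11 for day 4 against day 3 in untreated *Trex1* WT/FL cells. Leaving out 1 library gave 1 to 1 (day 2), 3 to 6 (day 3) and 5 to 9 (day 4) between genotypes after 4-OHT, 0 to 2 on day 1 between untreated genotypes, 0 to 2 on days 1 and 2 between treatments of *Trex1* FL/FL cells, and 8 to 15 for day 4 against day 3 in untreated *Trex1* WT/FL cells, where a lone library is assumed to vary like the other groups. The values of changes between days in the genotype difference, and the counts over day steps, were alternatives chosen after seeing the data. The causes of these shifts were not tested, except that fewer libraries or genes enter where the setting says so. No paired analysis was possible because the labels carry no replicate number.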

Other observations

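Genes next to the set in NADPH supply, desaturation and cholesterol handling also differed between the genotypes on day 4 after 4-OHT (*Trex1* FL/FL against *Trex1* WT/FL). *Pgd*, of the oxidative pentose phosphate pathway, and *Idh1*, the cytosolic isocitrate dehydrogenase, both of which make NADPH as *Me1* does, were lower with log2 fold changes of -0.88 ± 0.09 (adjusted p = 9.6e-09) and -0.84 ± 0.06 (adjusted p = 7.9e-12). *Fads3*, a gene of the same family as *Fads1* and *Fads2*, had -1.30 ± 0.20 (adjusted p = 1.3e-05). In the other direction *Npc2*, which hands cholesterol out of lysosomes, had 0.73 ± 0.07 (adjusted p = 7.9e-09) and *Nr1h3*, the LXR alpha gene, 0.72 ± 0.10 (adjusted p = 2e-06). Their list of 12 LXR targets and export genes had 3 higher and 3 lower, against 9.84% and 11.7% of all genes. *Abca1* was among the lower, at -0.61 ± 0.08 (adjusted p = 1.3e-06). All p-values are from edgeR's quasi-likelihood test over all genes.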
